A study of Homo sapiens with 6 samples.

Results

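E2F transcription factors switch on the genes a cell needs to enter and pass through S phase, and the pocket proteins hold them in check. Most E2F proteins bind DNA as a pair with a DP partner. In quiescent and early G1 cells the pocket proteins RB1, RBL1 and RBL2 sit on these pairs and recruit corepressors, and phosphorylation by cyclin-dependent kinases releases them. RBL1 and RBL2 also join E2F4 and a DP protein to the MuvB core in the DREAM complex, which represses cell cycle genes, while the atypical factors E2F7 and E2F8 bind DNA without a DP partner and repress E2F targets later in the cycle. In liver, E2F activity is low in resting hepatocytes and rises in regeneration and in hepatocellular carcinoma.

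The set described here was 10 genes chosen by symbol: the activators E2F1, E2F2 and E2F3, the repressor E2F4, the atypical repressors E2F7 and E2F8, the DP partner TFDP1, and the pocket protein genes RB1, RBL1 and RBL2. They filled 11 of the 23344 rows of the deposited expression table, because RBL1 named 2 Ensembl genes. RBL1 is used below for ENSG00000080839; the other row with that symbol, ENSG00000269846, had at most 0.21 in any library and was not tested. The test covered 13696 genes that reached 1 in 3 or more libraries. It held 9 of the 10 genes, all except E2F7.

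RNA was sequenced from Huh7, an established human liver cancer cell line, after delivery of lentivirus in the presence of polybrene. The control libraries (shNC, 3 replicates) came from Huh7 cells given control lentivirus, and the knockdown libraries (sh2, 3 replicates) from Huh7 cells given lentivirus against the V1 isoform of versican, a proteoglycan of the extracellular matrix. The name sh2 points to a single hairpin, and the labels do not say whether replicates were separate cultures, so the spread between them may be technical. VCAN, the versican gene, had a mean of 6.38 in control and 1.76 in knockdown libraries (log2 fold change -1.39, limma adjusted p = 0.0103; 0.0537 without control replicate 2). The unit of the values is not named. They were treated as FPKM, which are per transcript length, and levels are set side by side between genes on that assumption.

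All 13 hepatoma markers, AFP and ALB among them, were above 1 in each library. Of these, 4 rose and 1 fell (limma): FGG, FGB and APOA1 were among those that rose (0.67, 0.70 and 1.05) and TTR fell by 1.19, and their summed level was 7983 to 9551 in control and 9862 to 12092 in knockdown libraries. Of 14 blood cell markers measured, knockdown replicate 2 had all above 0 and the other libraries 8 or 9. Their summed level was 76.6 to 92.7 in control libraries and 110, 215 and 109 in knockdown replicates 1, 2 and 3. Only 4 of the 14 were tested, and LYZ, the lysozyme gene and the only one called, rose by 1.08 (limma adjusted p = 0.0277). LYZ and CD14 made up most of that sum; without both, a choice made after their values were seen, it was 74.8 in knockdown replicate 2 and between 4.23 and 8.24 elsewhere. Among the defining markers S100A8 was at 17.9 and FCN1 at 5.46 in that library and at 0 in the other 5; these 2 were also picked after their values were seen. Mitochondrially encoded genes took 16.0% to 19.2% of the summed values in control and 23.8% to 31.2% in knockdown libraries. The part of the marker differences in the results below was not tested; rescaled values for the mitochondrial share stand beside the results they move.

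Because E2F genes are known to be E2F targets themselves, the promoters of the set were searched for E2F-type sites, and the stretches that held a match are shown. The search used the 4 letter strings TTTGGCGC, TTTCCCGC, TTTCGCGC and TTTGCCGC on both strands, in RefSeq windows (GRCh38.p14) from 250 bases before to 50 bases after an annotated start. A match was found for 5 of the 9 genes of the set that have a window, counting a gene if any of its windows held one. Counted by window, 3.31% of all 35116 held a match. Counted by gene, 616 of the 9100 tested genes with a window did. E2F8 was not among the genes with a window. The windows below are printed 5′ to 3′ on the strand of the gene, with each match in capitals. The E2F1 stretch is chr20:33686386-33686455 (minus strand), the E2F2 stretch chr1:23531234-23531303 (minus strand), the E2F3 stretch chr6:20401809-20401878 (plus strand), the RBL1 stretch chr20:37095998-37096067 (minus strand) and the TFDP1 stretch chr13:113584613-113584682 (plus strand). All end at the base before the start, except that of TFDP1, which ends 71 bases before it.
E2F1: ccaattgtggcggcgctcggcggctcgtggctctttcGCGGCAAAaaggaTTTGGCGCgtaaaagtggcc
E2F2: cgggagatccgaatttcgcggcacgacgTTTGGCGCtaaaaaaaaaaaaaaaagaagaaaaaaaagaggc
E2F3: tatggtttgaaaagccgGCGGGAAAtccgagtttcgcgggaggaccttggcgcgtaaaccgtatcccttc
RBL1: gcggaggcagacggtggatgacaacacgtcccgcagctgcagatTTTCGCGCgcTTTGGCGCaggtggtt
TFDP1: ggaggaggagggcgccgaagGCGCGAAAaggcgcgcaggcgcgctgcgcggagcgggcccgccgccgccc

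E2F1 and RBL1 each held 2 matches, which 0.145% of all windows do, and E2F2, E2F3 and TFDP1 held 1 each. The matches of E2F1, E2F2 and RBL1 lay within the last 42 bases before the start, that of E2F3 began 53 bases before it in 1 of its 2 windows, and that of TFDP1 began 120 bases before it. The windows of E2F4, E2F7, RB1 and RBL2 held none of the strings. A match is a string of letters and does not show binding.

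None of the 9 tested genes passed the threshold (limma, Benjamini-Hochberg adjusted p below 0.05), while 8.08% of all genes tested did (3.94% lower and 4.15% higher). At an unadjusted p below 0.05 there were 3, which were E2F2, E2F8 and TFDP1, against 29.3% of all genes. The same 3 had every knockdown library below every control library, as did 18.7% of all genes tested, and E2F3 had every knockdown library above, as did 14.4%. Counting both directions, 4 of the 9 had groups that did not overlap, beside 33.1% over the whole test. The median log2 fold change over the 9 genes was -0.08, beside -0.03 over all genes. Across all genes 539 were lower and 568 higher; with libraries rescaled to their totals outside the mitochondrially encoded genes (below, the mitochondrial rescaling) the split was 221 lower and 673 higher, and the set still had 0 calls.

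**Figure D1:**
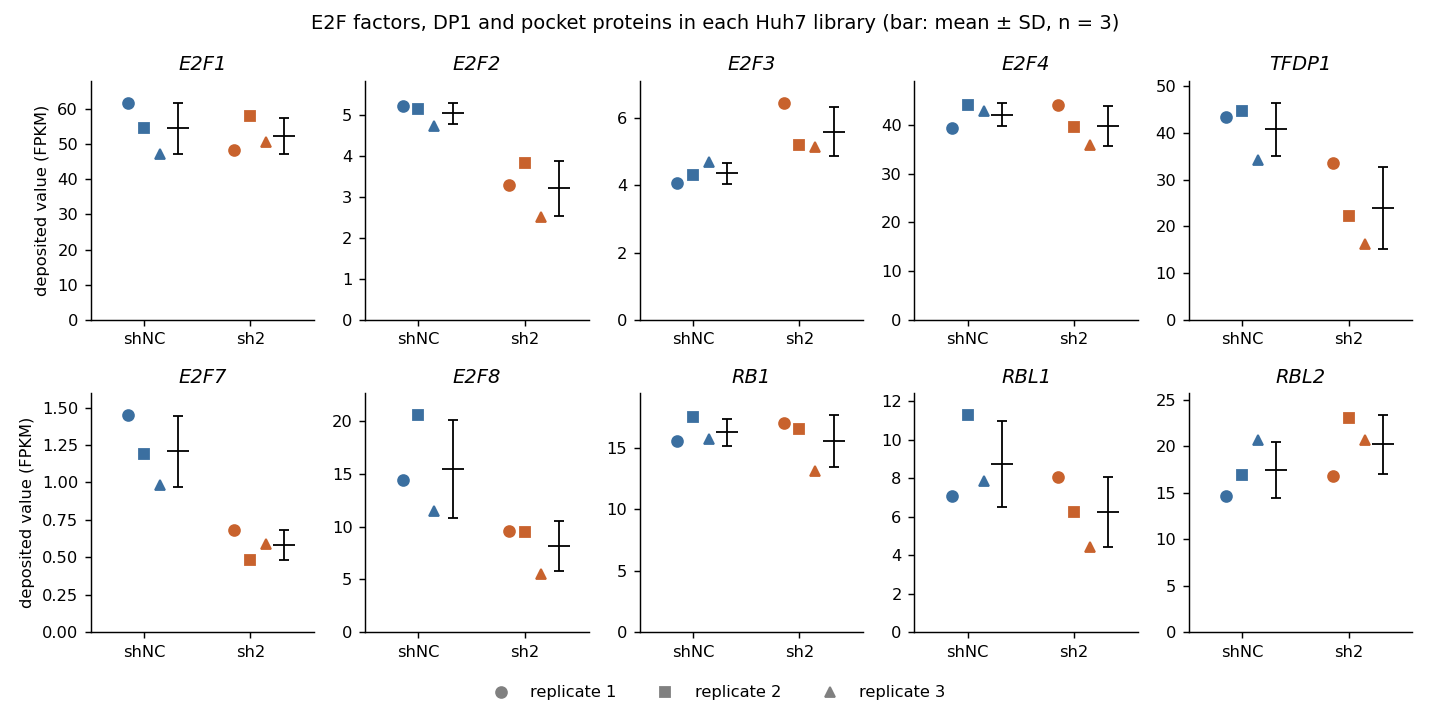
Deposited values (treated as FPKM, linear axes from 0) of the 10 genes in the 3 shNC (blue) and 3 sh2 (orange) libraries, with symbols for replicates and bars for mean ± SD. TFDP1, E2F2, E2F7 and E2F8 have all sh2 points below all shNC points, E2F3 has them above, and the other genes overlap.

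Among the activators, none passed the test. E2F1, the activator most abundant here, had 61.7, 54.7 and 47.2 in the control libraries and 48.3, 58.0 and 50.7 in the knockdown libraries, each in the order of replicates 1 to 3, an order used throughout. The knockdown values all lay inside the control range. The log2 fold change was -0.05 with a 95% interval from -0.36 to 0.25 (limma adjusted p = 0.824), and its sign changed to 0.02 with quantile normalization and to 0.05 with the mitochondrial rescaling.

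E2F2, an activator tied to proliferating cells, had 5.21, 5.15 and 4.73 in control and 3.28, 3.83 and 2.50 in knockdown libraries. Each knockdown value lay under the lowest control value. The means were 5.03 ± 0.262 and 3.20 ± 0.668 (SD, n = 3), a log2 fold change of -0.53 (interval -0.91 to -0.16, limma adjusted p = 0.0766), which did not pass the test. Without knockdown replicate 1 the adjusted p was 0.0528, and over 11 alternatives it was never below that. Leaving out knockdown replicate 2 gave -0.64 (adjusted p = 0.117), and the mitochondrial rescaling gave -0.45 (adjusted p = 0.148).

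E2F3, the third activator, had 4.08, 4.32 and 4.69 in control and 6.46, 5.21 and 5.14 in knockdown libraries. Each knockdown value was above the highest control value, with knockdown replicate 1 the highest. The log2 fold change of 0.30 (interval -0.04 to 0.63) did not pass (limma adjusted p = 0.219), and was between 0.20 and 0.39 over the alternatives. One row covers all transcripts of a gene, so the long and short E2F3 forms, which start at different promoters, were not separated.

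E2F4, the main E2F of repressive pocket complexes, had 39.4, 44.1 and 43.0 in control and 44.1, 39.7 and 35.9 in knockdown libraries. The groups overlapped, with knockdown replicate 3 the lowest. Its log2 fold change was -0.08 (interval -0.35 to 0.19, limma adjusted p = 0.688), or 0.02 with the mitochondrial rescaling.

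TFDP1, which encodes the DP partner that most E2F proteins need to bind DNA, had 43.5, 44.6 and 34.2 in control and 33.5, 22.2 and 16.2 in knockdown libraries. The groups were apart by a narrow margin, from control replicate 3 to knockdown replicate 1, and knockdown replicates 2 and 3 were well below. The means were 40.7 ± 5.70 and 23.9 ± 8.80 (SD, n = 3), with a log2 fold change of -0.79 (interval -1.33 to -0.25, limma adjusted p = 0.0715) that did not pass. Without knockdown replicate 1 it was -1.06 with an adjusted p = 0.00390; in that comparison 12.8% of all genes were called lower. Leaving out knockdown replicate 2, the library with the highest blood cell marker sum, gave -0.77 (limma adjusted p = 0.178). The mitochondrial rescaling gave -0.69 (adjusted p = 0.0906).

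E2F8, an atypical repressor and itself a cell cycle gene, had 14.5, 20.6 and 11.5 in control and 9.58, 9.52 and 5.49 in knockdown libraries. Control replicate 2 was highest and knockdown replicate 3 lowest, and no values crossed between the groups. The means were 15.5 ± 4.67 and 8.20 ± 2.34 (SD, n = 3), a ratio of 1.89. The log2 fold change of -0.84 (SE 0.25, interval -1.41 to -0.27) was the lowest of the 9 genes and did not pass (limma adjusted p = 0.0709). It was -0.96 without knockdown replicate 1 (adjusted p = 0.0410), -0.96 without knockdown replicate 2 (adjusted p = 0.121) and -0.74 with the mitochondrial rescaling (adjusted p = 0.107). Without knockdown replicate 1, 12.8% of all genes were called lower.

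E2F7, the other atypical repressor, was the least abundant gene of the set, with 1.45, 1.19 and 0.98 in control and 0.68, 0.48 and 0.59 in knockdown libraries. No knockdown library reached the lowest control library, and the means differed by 2.07 times. Only 2 libraries had a value of at least 1, both of them controls, so the gene stayed out of the fit. A two-sided exact permutation test over the 6 libraries gave p = 0.1, the smallest this design can give. In a fit with no filter on low values, where 0.947% of 23339 genes were called, its log2 fold change was -0.48 (SE 0.15, limma adjusted p = 0.150).

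**Figure D2:**
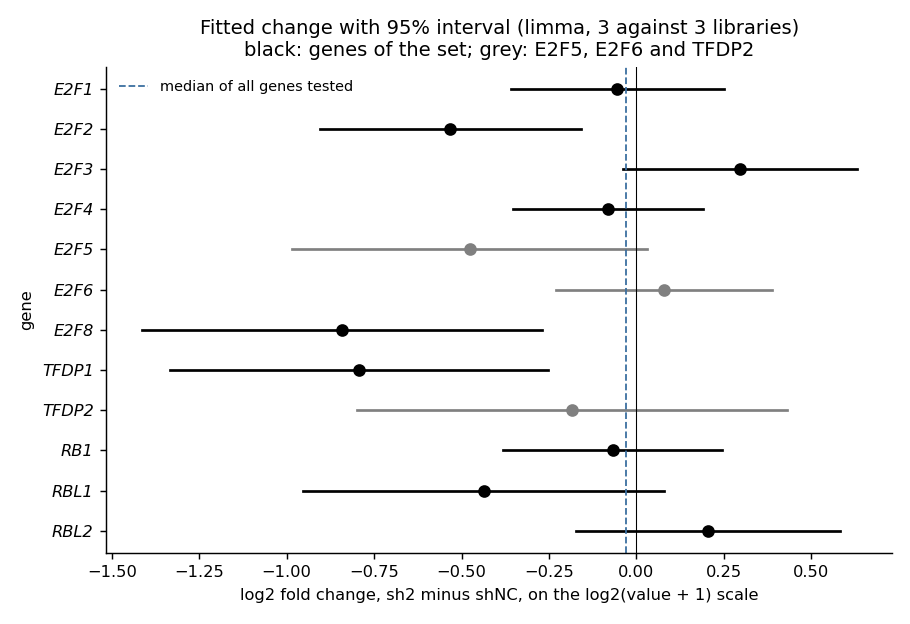
Log2 fold change (x axis, sh2 minus shNC on the log2(value + 1) scale) with its 95% interval for the 9 tested genes of the set in black and for E2F5, E2F6 and TFDP2 in grey; the dashed line is the median of all genes tested. The intervals of E2F2, E2F8 and TFDP1 lie below 0, from -0.91 to -0.16 for E2F2, although none passed after adjustment over all genes.

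The pocket protein genes did not pass either. RB1, the retinoblastoma gene, had 15.6, 17.6 and 15.7 in control and 17.03, 16.5 and 13.1 in knockdown libraries. The groups overlapped, with only knockdown replicate 3 below the control range. Its log2 fold change was -0.07 (interval -0.38 to 0.25, limma adjusted p = 0.782), or 0.03 with the mitochondrial rescaling and 0.04 without knockdown replicate 3.

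RBL1, the pocket protein that accumulates in cycling cells and is itself an E2F target, had 7.07, 11.3 and 7.87 in control and 8.04, 6.24 and 4.42 in knockdown libraries. Knockdown replicate 1 lay inside the control range and the other 2 below it. The log2 fold change was -0.44 (interval -0.95 to 0.08, limma adjusted p = 0.240), -0.61 without knockdown replicate 1 (adjusted p = 0.0653), -0.26 without control replicate 2, -0.45 without knockdown replicate 2 and -0.34 with the mitochondrial rescaling.

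RBL2, the pocket protein most abundant in quiescent cells, had 14.7, 16.95 and 20.6 in control and 16.8, 23.1 and 20.7 in knockdown libraries. The groups overlapped, and knockdown replicate 2, the library with the highest blood cell marker sum, held the highest value. The log2 fold change was 0.20 (interval -0.17 to 0.58, limma adjusted p = 0.448) and 0.11 without that library.

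The size of this experiment limits what a missed call says about these genes. In sets simulated from the 13696 tested genes, 200 genes per set were altered, all drawn from those with a mean log2 value of at least 3. A 1.5-fold change was found for 25.3% of the altered genes, a 2-fold change for 70.3% and a 4-fold change for 97.1%. E2F2 (mean log2 value 2.33) and E2F3 (2.57) lay below that level, so these rates do not cover them. In the data 1107 genes were called, more than were altered in any simulated set, so the adjustment was stricter in the simulation. Noise was drawn for each gene separately, without shifts shared by a whole library. The rates therefore hold for that setting and were not matched to these data.

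The order of the genes was alike in all libraries at its ends. E2F1 ranked first and E2F7 last in each of the 6 libraries. By control means the order was E2F1 (54.5), E2F4 (42.2), TFDP1 (40.7), RBL2 (17.4), RB1 (16.3), E2F8 (15.5), RBL1 (8.74), E2F2 (5.03), E2F3 (4.36) and E2F7 (1.21). Neighbours with overlapping control values were E2F4 and TFDP1, RBL2 and RB1, and RB1 and E2F8, so their order within the controls is not fixed by these values. By knockdown means the order was E2F1 (52.3), E2F4 (39.9), TFDP1 (23.9), RBL2 (20.2), RB1 (15.6), E2F8 (8.20), RBL1 (6.23), E2F3 (5.60), E2F2 (3.20) and E2F7 (0.583).

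The order of 1 pair differed between the groups. E2F2 was above E2F3 in each control library and below it in each knockdown library: the E2F2 to E2F3 ratio was 1.28, 1.19 and 1.01 in control and 0.508, 0.735 and 0.486 in knockdown libraries. A ratio within a library does not depend on how that library was scaled. This ratio and 2 of TFDP1 were chosen after the values were seen and carry no test. TFDP1 relative to E2F4 was 1.102, 1.01 and 0.796 in control and 0.759, 0.558 and 0.450 in knockdown libraries, with a gap of little width between control replicate 3 and knockdown replicate 1. TFDP1 relative to RBL2 was 2.97, 2.63 and 1.66 in control and 1.99, 0.961 and 0.781 in knockdown libraries, and those groups overlapped.

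The other 3 ratios overlapped between the groups. E2F1 to RB1, activator to pocket protein, was 3.36 ± 0.530 in control and 3.40 ± 0.522 in knockdown libraries (SD, n = 3). RBL1 to RBL2 was 0.482, 0.665 and 0.382 in control and 0.479, 0.271 and 0.213 in knockdown libraries, with replicates 2 and 3 of the knockdown below all controls. E2F8 to E2F7 was 12.99 ± 3.85 and 14.4 ± 5.27.

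**Figure D3:**
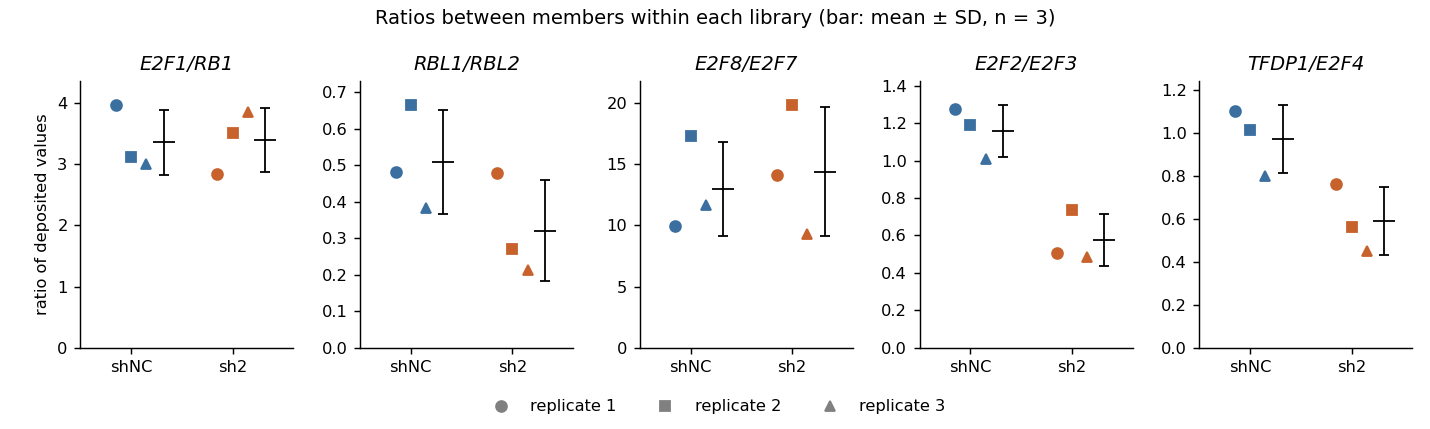
Ratios of deposited values within each library for 5 pairs (linear axes from 0; blue shNC, orange sh2; bars are mean ± SD, n = 3). The E2F2/E2F3 and TFDP1/E2F4 ratios are lower in each sh2 library than in each shNC library, from 1.01 to 1.28 against 0.486 to 0.735 for E2F2/E2F3, and the other 3 overlap.

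Of the 3 further family genes measured, none passed the test. E2F5, a partner of RBL1 and RBL2, had 10.6, 11.7 and 12.1 in control and 11.99, 6.01 and 6.83 in knockdown libraries. Knockdown replicate 1 matched the controls and the other 2 were lower (log2 fold change -0.48, limma adjusted p = 0.194). Without knockdown replicate 1 the log2 fold change was -0.75 (adjusted p = 0.00675), and 12.8% of all genes were called lower. E2F6, which represses without pocket proteins, had 0.08 (adjusted p = 0.741), and TFDP2, a second DP partner, had -0.18 (adjusted p = 0.688) and a positive sign without knockdown replicate 3.

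The partners that turn pocket complexes into DREAM or into the later MYBL2 complex included genes that fell. Of 8 MuvB, MYB and FOXM1 genes (below, the MuvB and MYB genes), 3 fell and 0 rose. The list median was -0.44, beside -0.03 over all genes. Of all genes tested 3.94% fell and 4.15% rose, shares that also stand beside the list counts below. MYBL2, the MYB factor that joins MuvB when the pocket proteins leave and is an E2F target, had 93.4, 99.1 and 70.9 in control and 53.8, 55.8 and 37.4 in knockdown libraries. All 3 knockdown values were below the lowest control (log2 fold change -0.83, SE 0.19, limma adjusted p = 0.0342). FOXM1, the forkhead factor of G2/M genes, fell by 0.69 (adjusted p = 0.0451), and LIN52, the MuvB subunit that contacts the pocket proteins, fell by 0.73 (adjusted p = 0.0368). RBBP4, a histone-binding subunit, had -0.51 and did not pass (adjusted p = 0.0820). The count of genes that fell was 0 without each of control replicates 1, 2 and 3 and knockdown replicates 2 and 3, and 4 without knockdown replicate 1. In that last comparison 12.8% of all genes were called lower. With the mitochondrial rescaling FOXM1 (adjusted p = 0.0652) and LIN52 (adjusted p = 0.0555) did not pass.

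Upstream, cyclin and kinase genes had negative log2 fold changes in 9 of 9 cases, beside 53.5% of all genes tested, and genes of their inhibitors went both ways. Of 9 cyclin and kinase genes tested, 2 fell and 0 rose (median -0.45). CDK2, the partner of cyclins E and A, fell by 0.69 on the log2 scale, with means of 50.9 and 31.4 (limma adjusted p = 0.0290), and CCNA2, the cyclin A gene, fell by 0.87 (adjusted p = 0.0424). CCNE1, the cyclin E gene (-0.55, adjusted p = 0.0601), and CDK4, the D cyclin kinase (-0.46, adjusted p = 0.0964), did not pass. The count was 7 without knockdown replicate 1 (where 12.8% of all genes were called lower), 1 without knockdown replicate 2 and 0 without any one of the other 4 libraries. With the mitochondrial rescaling neither CDK2 (adjusted p = 0.0553) nor CCNA2 (adjusted p = 0.0530) passed.

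Of 6 CDK inhibitor genes tested, 2 rose and 1 fell (median -0.09). CDKN2B, an inhibitor of CDK4 and CDK6, had 3.79, 5.80 and 3.21 in control and 11.6, 13.8 and 15.1 in knockdown libraries. Its knockdown values were all above the highest control (log2 fold change 1.48, SE 0.20, limma adjusted p = 0.0103), and it passed in 11 of 11 alternatives. CDKN1A, an inhibitor of CDK2 and a p53 target, rose by 0.79 (adjusted p = 0.0212) and CDKN2C, an INK4 inhibitor whose gene is an E2F target, fell by 1.09 (adjusted p = 0.0397); they passed in 5 and 6 of 11 alternatives. CDKN2A, which is repressed by E2F and pocket complexes in many cells, had -0.24 and did not pass (adjusted p = 0.312).

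Of 17 corepressor genes tested, 1 fell and 0 rose (median -0.15). The gene that fell was SUV39H1, a histone methyltransferase recruited by RB1, with means of 22.7 and 14.5 (-0.62, limma adjusted p = 0.0353; 0.0740 with the mitochondrial rescaling). PCGF6, a subunit of the E2F6 complex, had -0.53 (adjusted p = 0.0715), ARID4B, a pocket-binding subunit of a histone deacetylase complex, had 0.40 (adjusted p = 0.109), and SMARCA4, a chromatin remodeller, had -0.27 (adjusted p = 0.132). Without knockdown replicate 1 the list had 4 genes lower and 3 higher, and without any one other library it had 0 lower. Leaving out knockdown replicate 1, 12.8% of all 13408 genes tested were called lower and 1573 were called higher.

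**Figure D4:**
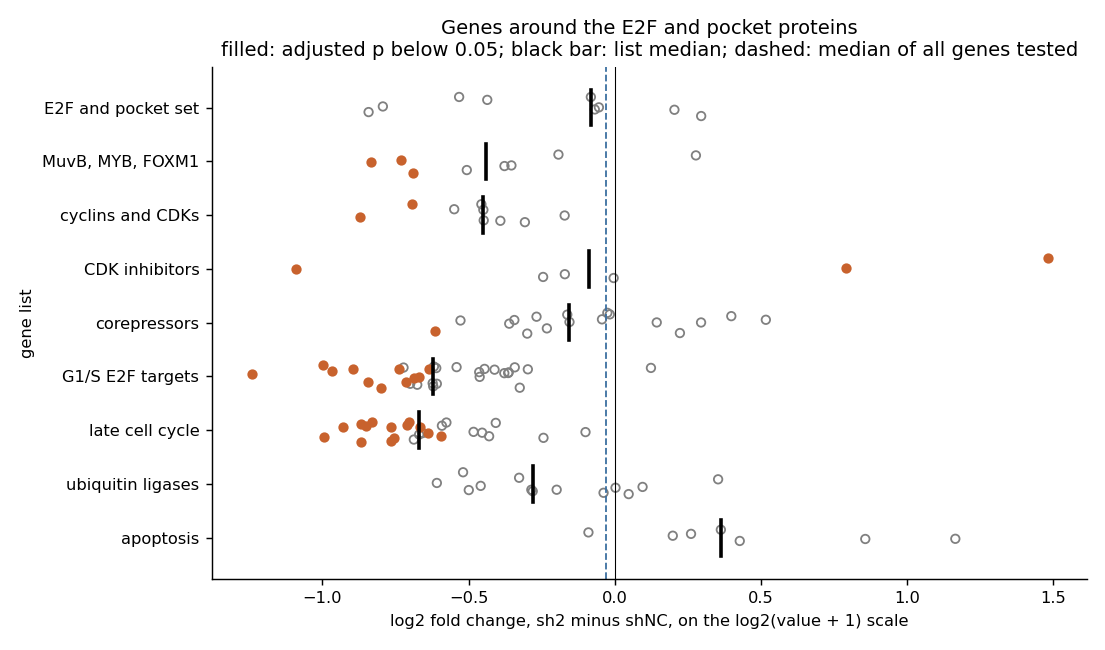
Log2 fold change (x axis, sh2 minus shNC on the log2(value + 1) scale) of each tested gene in the E2F and pocket set and in 8 lists of partners, regulators and targets; filled points have an adjusted p below 0.05, black bars are list medians and the dashed line is the median of all genes. The G1/S and late cell cycle lists have medians of -0.62 and -0.67, against -0.08 for the E2F and pocket set.

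The target lists had lower medians than the E2F and pocket set, a difference that was not tested. All lists were chosen with earlier results of these data known. Of 31 G1/S E2F target genes, 11 fell and 0 rose, beside 3.94% and 4.15% of all genes tested, and the median was -0.62. A negative log2 fold change was seen in 30 of them (53.5% of all genes tested had one). Under the mitochondrial rescaling the count that fell was 4. PRIM1, the DNA primase subunit gene, had 49.8, 56.2 and 47.6 in control and 27.0, 26.7 and 21.8 in knockdown libraries. The groups lay far apart (log2 fold change -0.998, SE 0.13, limma adjusted p = 0.0100), and the call was lost only without control replicate 2 (adjusted p = 0.0517) among 11 alternatives. The helicase genes MCM6 (-0.97), MCM4 (-0.80) and MCM3 (-0.71) had the next smallest p-values and fell as well.

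Of 25 late cell cycle genes bound by DREAM, 14 fell and 0 rose, beside 3.94% and 4.15% of all genes tested, with a median of -0.67. All 25 had a negative log2 fold change, beside the same 53.5% of all genes. Under the mitochondrial rescaling the count that fell was 8. BIRC5, the survivin gene, had -0.87, BUB1, a spindle checkpoint kinase gene, -0.99, and NDC80 and NUSAP1, genes of the kinetochore and spindle, -0.76 and -0.71. Without control replicates 1, 2 and 3 the G1/S count was 1, 0 and 2 and the late count 0, 0 and 2. Without knockdown replicates 1, 2 and 3 the G1/S count was 26, 3 and 2 and the late count 22, 1 and 1. Leaving out knockdown replicate 1, 12.8% of all genes were called lower. In bulk RNA a smaller share of cells in S or G2/M and less of these transcripts per cell cannot be told apart.

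The ubiquitin ligase list, which holds regulators of E2F and CDK inhibitor turnover, had 0 of 13 rows called and a median of -0.28. At an unadjusted p below 0.05 (limma) there were 5 rows, beside 29.3% of all genes tested. CKS1B and SKP2, which together mark CDKN1B for degradation, had -0.52 (adjusted p = 0.0571) and -0.46 (adjusted p = 0.0674), CCNF, a cyclin F-box gene, had -0.61 (adjusted p = 0.0882), and FBXW7, the ligase of cyclin E, had 0.35 (adjusted p = 0.142). CKS1B named 2 rows, of which the one given is ENSG00000173207. Of 7 tested apoptosis genes linked to E2F1, 0 were called and 3 had an unadjusted p below 0.05 (limma), beside the same 29.3% of all genes. Their median log2 fold change was 0.36, beside -0.03 over all genes. A negative log2 fold change was seen in 1 of them, beside 53.5% of all genes tested. BBC3, a BH3-only gene, had 11.5, 8.51 and 7.04 in control and 11.1, 25.7 and 32.2 in knockdown libraries, where replicate 1 lay within the control range (1.17, limma adjusted p = 0.0703). Without that library the log2 fold change was 1.598 (adjusted p = 0.00166), and 1573 of the 13408 genes tested were called higher. PMAIP1, another BH3-only gene, had 0.86 (adjusted p = 0.0598), and the caspase gene CASP8 had 0.43 without passing (adjusted p = 0.118).

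Within the set, tested genes with and without a promoter match both included log2 fold changes of either sign, and none passed the test. The 5 genes with a match had log2 fold changes of -0.05 (E2F1), -0.53 (E2F2), 0.30 (E2F3), -0.44 (RBL1) and -0.79 (TFDP1). The tested genes whose windows held none had -0.08 (E2F4), -0.07 (RB1) and 0.20 (RBL2). Among the lists, 17 of the 27 G1/S target genes with a window held a match (63%), as did 3 of 20 late cell cycle genes (15%) and 5 of 17 corepressor genes (29.4%). Over the 9100 tested genes with a window, 6.01% of the 616 with a match fell and 2.27% rose, against 4.31% and 4.01% of the 8484 without one. Outside the set and the lists, 4.99% of 581 genes with a match fell. The base composition of the windows was not taken into account, and these shares carry no test.

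E2F8 was the E2F gene and RBL1 the pocket gene with the smallest p, and the genes whose log2 values tracked them most closely over the 6 libraries were looked up among 8156 tested genes with a mean log2 value of at least 3. For E2F8 these were DYNLL2, TOR4A, TARDBP, PLAGL2 and CTDSP2, each with a Pearson r of 0.99. For RBL1 they were HLTF, SLC25A13, FAM98B, DIAPH3 and RALA, also with 0.99 each. None of these 10 genes passed the test between groups. In 6 libraries an r above 0.95 was common, with 150 genes for E2F8 and 114 for RBL1, and all points share the scaling of their library.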

How the data were processed

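The authors deposited 1 table with a symbol, an Ensembl gene ID and 1 value per library for each of 23344 rows. Its unit is not named; the values are not whole and their library totals differ, and they were treated as FPKM made by the authors. Per the submitters' processing notes, RSEM 1.1.17, Bowtie2 2.2.6, Trimmomatic 0.36 and bcl2fastq 2.19.0 were among the tools, with DESeq2 1.16.1 and edgeR 3.18.1, no step being assigned to any, and the build is given as mm10, a mouse build, although the IDs are human. No gene coordinates were therefore taken from the study; the promoter windows are RefSeq's on GRCh38.p14.

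The 13696 genes that reached 1 in 3 or more libraries were tested as log2(value + 1) with limma 3.58.1 in R 4.3.3 (trend, robust, two-sided, Benjamini-Hochberg over all genes tested, threshold 0.05). Fold changes are on that scale and are too small for low genes. "Rose" and "fell" mean an adjusted p below 0.05. The 10 genes and all lists were chosen with earlier results of these data known. Named were the 10 genes, the other E2F and DP genes, VCAN, up to 4 genes with the smallest p per list, and 5 like genes for each of 2 members; marker lists were used to check the labels, with not all marker genes that the rule selects named, and 1 gene that it selects is not reported here. No read totals are given, so depth is unknown. A relative depth taken from low values of single-transcript genes was 0.911 to 1. Only values above a fixed floor entered it, which limits how far libraries can differ, so it cannot show whether depths were alike. The test was tested on simulated data with 200 changed genes in each of 10 sets, in which 4.16% of calls were false. Alternatives were a pseudocount of 0.1, no low-value filter, quantile normalization, rescaling without the 13 mitochondrially encoded genes, the replicate number as a block, and leaving out each library.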

Additional observations from a re-analysis of the deposited data

How the results depend on the processing

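Of 253 alternative values of 23 named genes past the threshold, 105 lost the call and 0 changed sign. Of 330 values of 30 named genes that did not pass, 16 passed and 9 changed sign, none of them passing. The sign changes were E2F1 (0.017 with quantile normalization, 0.053 with the mitochondrial rescaling, and -0.15 to 0.038 with 1 library left out), E2F4 (0.024 with that rescaling), RB1 (0.034 with that rescaling, and -0.13 to 0.042 with 1 library left out), and, with 1 library left out, E2F6 (-0.0058 to 0.15) and TFDP2 (-0.42 to 0.16). Leaving out 1 library at a time, the members that fell ranged from 0 to 2, all genes lower from 6 to 1711 and all genes higher from 50 to 1573. The same range of genes that fell was 0 to 1 for other E2F and DP genes, 0 to 4 for MuvB and MYB, 0 to 7 for cyclins and kinases, 0 to 1 for CDK inhibitors, 0 to 4 for corepressors, 0 to 26 for G1/S targets, 0 to 22 for late cell cycle genes and 0 to 3 for ubiquitin ligases. Of genes that rose it was 0 to 1 for MuvB and MYB, 1 to 2 for CDK inhibitors, 0 to 3 for corepressors, 0 to 3 for apoptosis genes, 0 to 5 for hepatoma markers and 0 to 1 for blood cell markers. The highest values for the set, the G1/S and the late genes came without knockdown replicate 1; the cause was not tested.

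With no filter on low values, 64 genes were lower and 157 higher; 0 MuvB and MYB genes, 0 cyclin and kinase genes, 0 CDK inhibitors, 0 corepressors, 2 G1/S targets and 1 late cell cycle gene fell, and 1 CDK inhibitor, 2 hepatoma markers and 0 blood cell markers rose. More genes entered that adjustment, 23339 in place of 13696. With the mitochondrial rescaling 221 genes were lower, and 1 MuvB and MYB gene, 0 cyclin and kinase genes, 0 corepressors, 4 G1/S targets and 8 late genes fell. With quantile normalization 1 cyclin and kinase gene and 7 G1/S targets fell. With the replicate number as a block, 2 members fell, E2F8 (limma adjusted p = 0.0411) and TFDP1 (adjusted p = 0.0483); 1 cyclin and kinase gene and 2 ubiquitin ligase genes fell and 2 hepatoma markers rose, while all genes gave 402 lower and 459 higher. The labels give no shared batch for a number, so the numbers were not taken to pair the libraries. The deviations of same-numbered libraries from their group means correlated by 0.0530, 0.105 and 0.135 over genes. Those of unlike-numbered libraries correlated by -0.210 to 0.0935. Deviations within a group sum to 0 for each gene, so these correlations are tied to each other and cannot decide whether the libraries were paired. With a pseudocount of 0.1 no count moved by more than 1.5 times. Depth is unknown, so counting error of low genes such as E2F7 could not be given.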
